A study of Homo sapiens with 18 samples.

Results

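The genes described here are the protein-coding genes of human chromosome 12, read along both of its arms in clones of the RPE1 cell line. They were chosen for a mean of 0.5 RPKM or more over the 18 libraries of the series, where RPKM scales a gene's reads by its length and by the depth of the library. This minimum kept 502 of the 1019 protein-coding genes of chromosome 12 in the table, which holds 57773 genes in all and 7984 protein-coding genes at the same minimum. The arms were divided at the widest stretch without a protein-coding gene, chr12:34029695-38316577 in GRCh38 (4.29 Mb, between ALG10 and ALG10B). The short arm, 12p, held 109 members of 284 protein-coding genes, and the long arm, 12q, held 393 of 735. Just inside the minimum were ATF7IP (0.502 RPKM) and ALDH2 (0.504 RPKM), whose s3_2N means lay at -0.43 and 0.023 log2 units from the mean of the 6 clones. Just outside were ALX1 (0.4997 RPKM, -0.086) and DPY19L2 (0.495 RPKM, -0.34). The chromosome was chosen because its genes were lower in 1 diploid clone, s3_2N, in earlier results of these data, so the values of s3_2N are given as a description. Where calls on its contrast are counted, the counts stand beside the share of all genes and support nothing.

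RPE1 is a telomerase-immortalised line from human retinal pigment epithelium with a near-diploid karyotype. Every clone of the series, diploid or tetraploid, descends from cells that lived through ZM447439 (2.5 uM, 72 h), which blocks Aurora kinases so that cells leave mitosis without dividing, and were then grown out over weeks and cloned from single cells. The clones form 3 isolates, each with a tetraploid clone (s1_4N, s2_4N, s3_4N) and a diploid clone from the same plates (s1_2N, s2_2N, s3_2N), sorted by DNA content. Both clones of isolate 2 had in addition been stained with Hoechst 33342 before they were sub-cloned. Each clone has 3 libraries, A, B and C, so the spread between libraries is that within 1 clone. No untreated cells are among these samples, and DNA copy number was not measured in the files used here. Because RNA came from bulk cultures, fewer cells with a shift and a smaller shift in each cell cannot be told apart.

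Human cells carry a pair of each autosome, and a clone that has gained or lost a copy usually makes more or less RNA from genes along the whole of that chromosome, with buffering of single genes. Extra copies of chromosome 12 are known from cultured RPE1 lines. Its short arm holds genes of glycolysis and the neighbours CCND2, a cyclin gene, and TIGAR, a p53 target. Its long arm holds the type II keratin and HOXC clusters, CDK2, CDK4 and MDM2.

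The promoters of 5 members named below are shown. KDM5A and ALG10B are the first members of 12p and 12q by position, and ZNF268 is the last of 12q. NECAP1 and NTN4 were the lowest members of each arm in s3_2N by the rule given below. The windows run from 250 bases before the gene's start to 50 after it, 5′ to 3′ on the gene's strand, from RefSeq (GRCh38.p14). They lie at chr12:389271-389570 (KDM5A, minus strand), chr12:38316524-38316823 (ALG10B, plus), chr12:133181245-133181544 (ZNF268, plus), chr12:8082024-8082323 (NECAP1, plus) and chr12:95791106-95791405 (NTN4, minus). Capitals mark the dinucleotide CG, which reads the same on both strands.
KDM5A: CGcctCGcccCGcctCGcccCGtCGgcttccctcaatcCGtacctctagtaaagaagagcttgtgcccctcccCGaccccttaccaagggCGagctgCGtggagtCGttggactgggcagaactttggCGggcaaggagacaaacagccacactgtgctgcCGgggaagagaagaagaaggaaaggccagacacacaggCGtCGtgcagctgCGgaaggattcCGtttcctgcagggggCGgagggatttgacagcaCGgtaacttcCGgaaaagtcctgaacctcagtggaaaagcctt
ALG10B: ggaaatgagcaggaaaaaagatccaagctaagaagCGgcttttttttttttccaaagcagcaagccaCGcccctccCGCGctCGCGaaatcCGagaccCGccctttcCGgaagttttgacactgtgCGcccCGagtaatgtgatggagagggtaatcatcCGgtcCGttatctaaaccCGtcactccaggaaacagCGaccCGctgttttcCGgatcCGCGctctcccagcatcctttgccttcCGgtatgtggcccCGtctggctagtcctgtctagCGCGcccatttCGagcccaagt
ZNF268: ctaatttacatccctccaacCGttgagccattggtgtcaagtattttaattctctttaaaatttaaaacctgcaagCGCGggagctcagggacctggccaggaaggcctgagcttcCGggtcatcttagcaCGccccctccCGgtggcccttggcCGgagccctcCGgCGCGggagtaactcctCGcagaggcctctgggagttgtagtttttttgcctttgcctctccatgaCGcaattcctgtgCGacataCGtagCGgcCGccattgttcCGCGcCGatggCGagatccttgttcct
NECAP1: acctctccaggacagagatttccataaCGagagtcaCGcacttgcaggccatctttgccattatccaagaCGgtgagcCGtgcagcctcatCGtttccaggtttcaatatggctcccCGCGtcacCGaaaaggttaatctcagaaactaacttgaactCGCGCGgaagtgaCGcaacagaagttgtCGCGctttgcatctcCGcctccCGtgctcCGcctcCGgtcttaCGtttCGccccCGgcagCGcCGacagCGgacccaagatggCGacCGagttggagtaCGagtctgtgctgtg
NTN4: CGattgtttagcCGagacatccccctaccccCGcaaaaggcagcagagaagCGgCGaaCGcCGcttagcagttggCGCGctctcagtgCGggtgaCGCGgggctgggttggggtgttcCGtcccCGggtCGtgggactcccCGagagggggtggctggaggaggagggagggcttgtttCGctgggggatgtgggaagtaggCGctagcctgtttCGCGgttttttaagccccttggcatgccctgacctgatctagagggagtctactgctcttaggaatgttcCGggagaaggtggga
These windows held 20 (KDM5A), 24 (ALG10B), 20 (ZNF268), 27 (NECAP1) and 21 (NTN4) CG dinucleotides. Of the 502 members, 383 had a promoter in the table, with a median of 26 CG. Over all 35116 promoters of the table the median was 14. A count of 20 or more was found in 74.7% of the matched members and in 41.2% of all promoters. The latter were not chosen by level, as the members were, and expressed genes of other chromosomes were not compared. Dense CG at the start is the usual form of promoters of broadly expressed genes.

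The libraries held 37.2 to 54.4 M reads on genes. Of 8 listed genes of pigment epithelium only OTX2 had a median over 0.5 RPKM, at 2.21 to 4.76 RPKM. BEST1 stood at 0.0744 to 0.476, MITF at 0.0647 to 0.102 and PMEL at 0.0145 to 0.0487 RPKM. The epithelial keratin gene KRT18 was present at 64.7 to 122 RPKM. RPE65, RLBP1, TTR and TYRP1, genes of mature pigment epithelium, did not exceed 0.0268 RPKM in any library, and 7 markers of blood, endothelium, liver, muscle and neural crest summed to 0.00664 to 0.0290 RPKM per clone. Library s3_2N_A stood apart from the other 17. The root-mean-square distance of its log2 values from its own clone's mean was 0.549, against 0.0748 to 0.314 elsewhere, and s3_4N_C came next. Results on s3_2N are therefore given with and without s3_2N_A.

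Members on both arms were lower in s3_2N than in the other 5 clones. The measure is the mean over members of a library's log2(RPKM + 0.05) less the mean of the 6 clones. It was -0.112, -0.098 and -0.072 in libraries A, B and C of s3_2N. The clone's mean was -0.094 ± 0.020 (SD, n = 3). The other clones lay at 0.0037 ± 0.021 (s1_2N), -0.016 ± 0.016 (s1_4N), 0.015 ± 0.0093 (s2_2N), 0.056 ± 0.013 (s2_4N) and 0.036 ± 0.037 (s3_4N). The 3 libraries of s3_2N were below every library of the other clones, the lowest of which was s1_4N_A at -0.026.

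The arms did not separate in s3_2N. The mean of 12p was -0.089 ± 0.025 and that of 12q -0.095 ± 0.019. Within a library, 12p less 12q was -0.0025 in A, 0.010 in B and 0.010 in C, which gives 0.0059 ± 0.0073. The other clones' differences between the arms reached from -0.045 (s2_4N) to 0.014 (s2_2N), so that of s3_2N was inside their range.

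**Figure D1:**
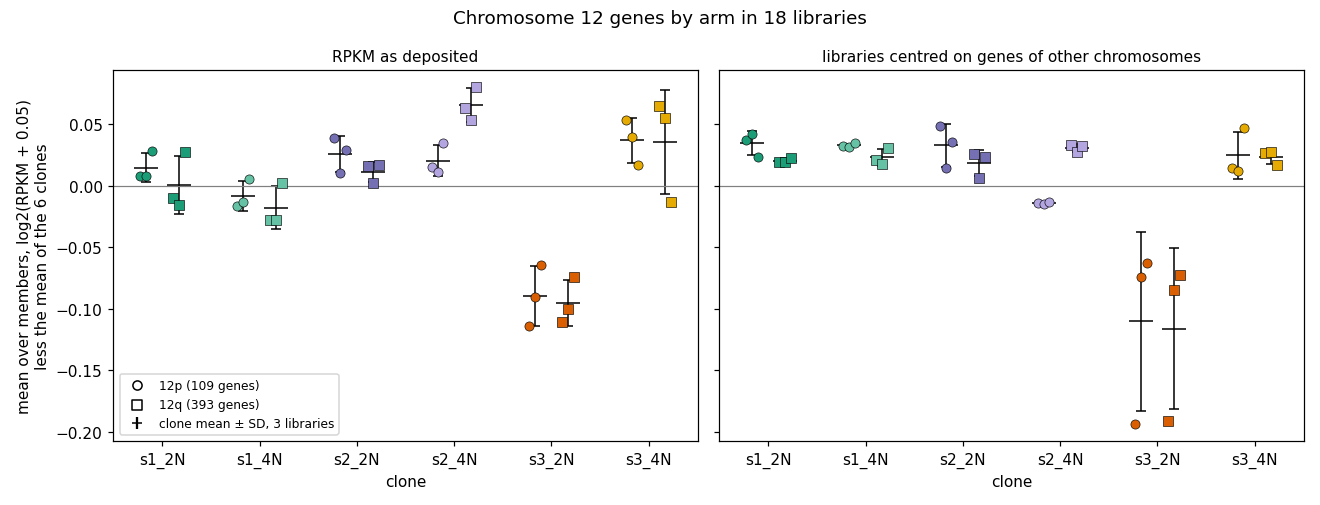
Mean over members of 12p (circles) and 12q (squares) in each of the 18 libraries, in log2 units from the mean of the 6 clones, as deposited (left) and with each library centred on genes of other chromosomes (right). Bars are clone means with the SD over 3 libraries. Both arms of s3_2N sit below 0 in all 3 libraries, and after centring library A (-0.192 over both arms) lies well below B and C.

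A library's overall level enters these means, so each library was also centred on the 7482 protein-coding genes of other chromosomes. The other 15 libraries then drew together, at 0.0078 to 0.032. Libraries B and C of s3_2N stayed close to their first values, at -0.082 and -0.070, while A moved to -0.192. With centring and without A, an alternative chosen after seeing the data, the clone stood at -0.083, with -0.075 on 12p and -0.085 on 12q. Set against the mean of the other 5 clones in the same way, the members were lower by 6.65% on average (a change of -6.65%; with all 3 libraries as deposited, -7.53%).

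Most members shared in this difference. Without A and centred, 407 of the 502 members (81.1%) were below the mean of the other 5 clones, against 50.8% of the genes of other chromosomes. On 12p it was 78.0% and on 12q 81.9%. The quartiles over the 502 members were -0.166 and -0.028, and the median was -0.092. Genes of other chromosomes were spread about as widely, with quartiles of -0.075 and 0.071. With all 3 libraries as deposited the quartiles were -0.261 and 0.034, and 351 members (69.9%) were below 0, against 46.2% of the other genes. Library A carried the wider spread: the SD over members was 0.501 in A and 0.134 and 0.141 in B and C.

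Chromosome 12 was the lowest of the 23 chromosomes compared (1 to 22 and X) in B and in C. The next was X, at -0.032 and -0.040. In A it came after chromosome 13 (-0.266) and chromosome 5 (-0.196), so that 2 chromosomes were lower, and chromosome 19 was highest at 0.303. In A the chromosomes were thus spread over a range several times that of B and C, and its own chromosome 12 value did not stand out. In the other clones chromosome 12 ranked from 12th to 22nd of 23 by centred mean (12 in s2_4N, 22 in s2_2N), counted from the lowest.

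**Figure D2:**
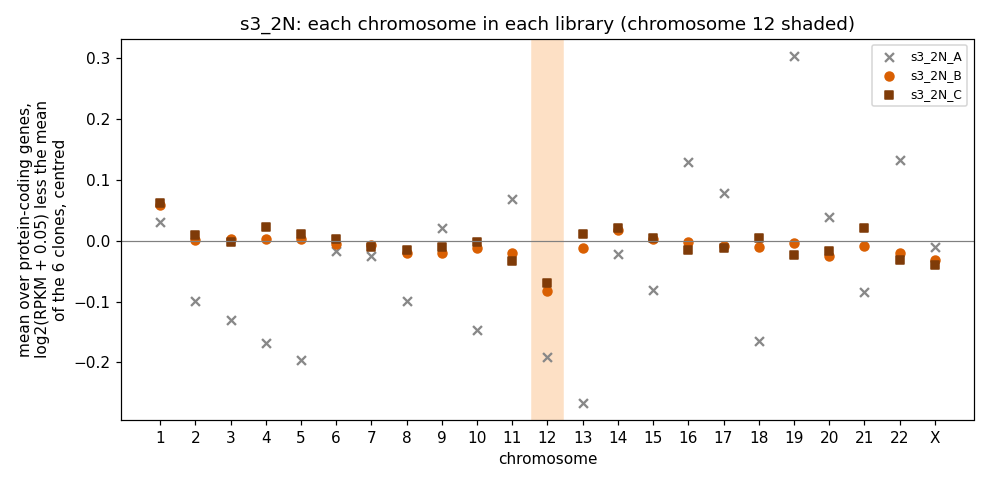
Centred mean of the protein-coding genes of each chromosome in the libraries A (crosses), B (circles) and C (squares) of s3_2N, in log2 units from the mean of the 6 clones. In B and C chromosome 12 (shaded) is the lowest point, at -0.082 and -0.070, while A scatters from -0.266 to 0.303.

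Along the chromosome the shift of s3_2N was present from end to end. In 10 Mb bins the clone was below 0 in 14 of 14 bins as deposited, from -0.217 to -0.026, and was the lowest clone in 12. Without A and centred it was again below 0 in 14 of 14 and the lowest in 12, now within -0.135 to -0.043 (SD over bins 0.023). The lowest value was in the bin from 10 to 20 Mb on 12p (GABARAPL1 to MGST1, 21 members), at -0.135. The first bin, from KDM5A to CLEC2B (57 members), was at -0.056 and the last, from STX2 to ZNF268 (19 members), at -0.074. The bin with most members, from 50 to 60 Mb (120 members, ASIC1 to LRIG3), was at -0.090.

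Of the single libraries, B was below 0 in all 14 bins (-0.144 to -0.040). Library C was below 0 in 12 (-0.114 to 0.024). Its 2 bins above 0 were thin, with 10 members (30 to 40 Mb, 0.015) and 8 members (80 to 90 Mb, 0.024). The mean of the 6 clones used for single libraries includes A, which stood at -0.586 and -0.646 in these bins. With A left out of that mean, the clone stood at -0.046 and -0.043 there. Over the 10 bins of 20 members or more, C lay between -0.114 and -0.037 and B between -0.144 and -0.052. Library A ran from -0.646 to -0.0064. Its deepest bins, 30 to 40 and 70 to 90 Mb, had 8 to 19 members each and transcripts of low GC content (medians of 38.0% to 41.3%).

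The other clones had bins of either sign. Without A and centred, s2_4N ran from -0.164 to 0.095 with 10 of 14 bins below 0, s1_4N from -0.054 to 0.178 with 5, and s2_2N from -0.078 to 0.071 with 6. Their SDs over bins were 0.063, 0.072 and 0.044, above the 0.023 of s3_2N, while s1_2N, at 0.025, was nearly as flat. With A included the SD of s3_2N was 0.057, and over bins of 20 or more members without A it was 0.021, against 0.018 in s1_2N.

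**Figure D3:**
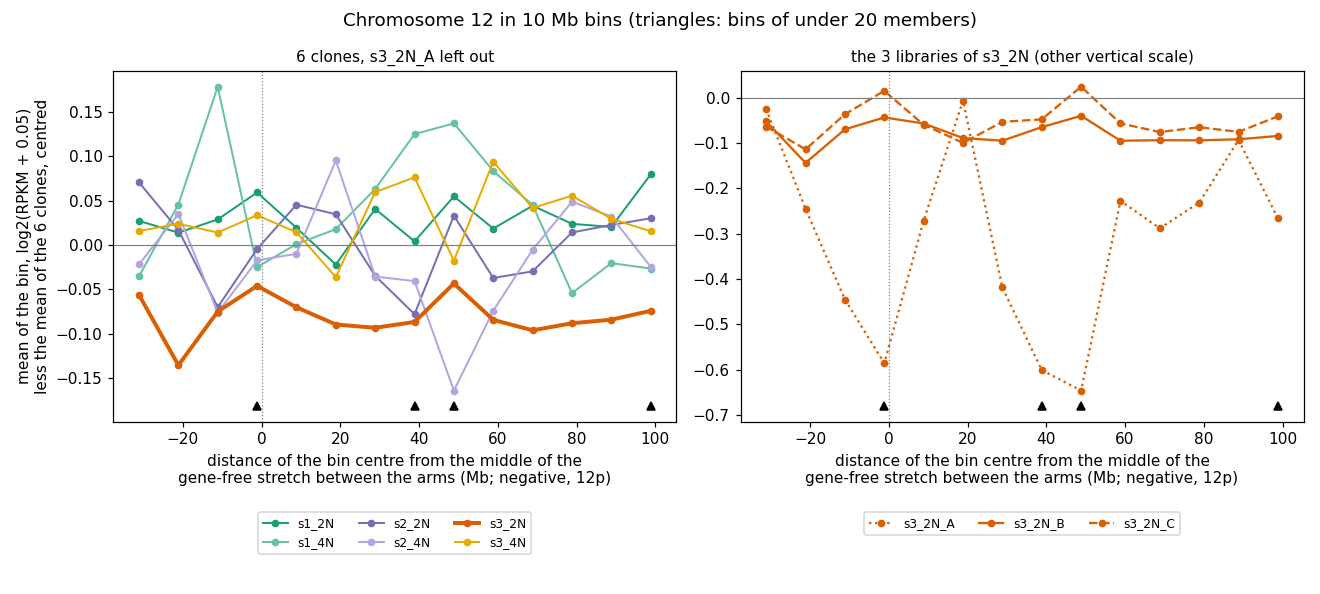
Mean of the members in 10 Mb bins against the distance of the bin from the middle of the gene-free stretch between the arms, in Mb, for the 6 clones without s3_2N_A (left) and for the 3 libraries of s3_2N (right, on a wider scale). Triangles mark bins of under 20 members. The s3_2N line stays below 0 in all 14 bins on the left, between -0.135 and -0.043, and on the right A dips to -0.646 where B and C do not.

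Windows of 25 members each read the chromosome at finer grain. As deposited, 19 of 20 windows of s3_2N were below 0 (-0.193 to 0.050) and the clone was the lowest in 10. Without A and centred, all 20 windows of s3_2N were below 0 (-0.139 to -0.020) and the clone was the lowest in 15. The weakest window was the second, from NOP2 to PEX5 at the gene-dense end of 12p. It stood at -0.020, and at 0.050 with A included as deposited. The strongest was the ninth, from COPZ1 to ZC3H10 on 12q, at -0.139, where s2_4N reached 0.341. The mean of the 6 clones that s3_2N is set against includes that value.

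In library A the level of a member followed the GC content of its transcript, its length and its abundance, on chromosome 12 as elsewhere. By terciles of GC content (496 of 502 members had a value, 98.8%), the centred members of A stood at -0.452, -0.153 and 0.025 from the lowest tercile to the highest. In B they were at -0.064, -0.099 and -0.086, and in C at -0.016, -0.087 and -0.109. Genes of other chromosomes in A went the same way, from -0.278 through -0.063 to 0.226. The difference between chromosome 12 and the other chromosomes within a tercile was -0.174, -0.090 and -0.201 in A, -0.083, -0.088 and -0.079 in B and -0.061, -0.094 and -0.075 in C. It was below 0 in all 3 terciles of all 3 libraries of s3_2N, and between -0.013 and 0.072 in those of the other 15 libraries.

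**Figure D4:**
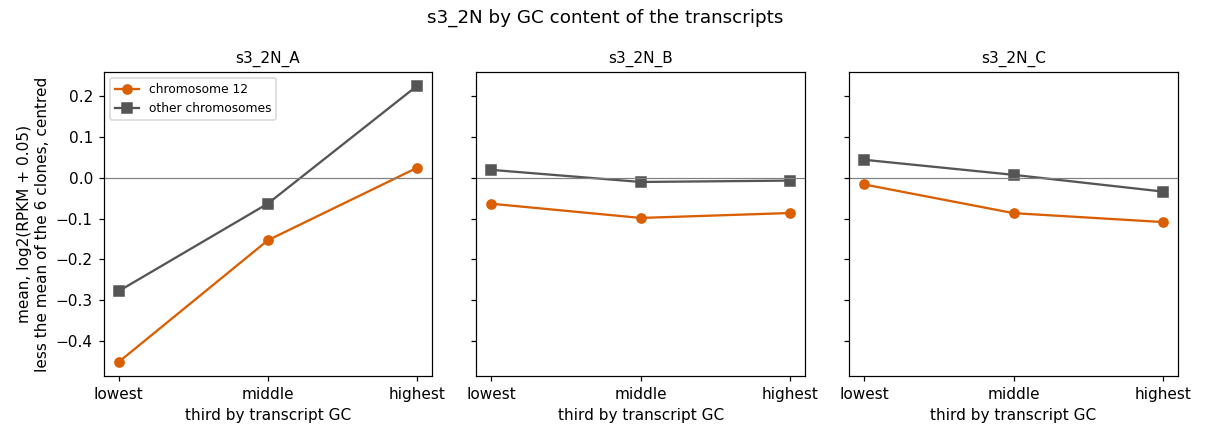
Centred mean of chromosome 12 members (circles) and of genes of other chromosomes (squares) in terciles by transcript GC content, for each library of s3_2N. In A both lines climb with GC, from -0.452 to 0.025 and from -0.278 to 0.226, and in every panel the chromosome 12 line lies below the other.

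Gene span and level gave the same contrast between A and the other libraries. By terciles of genomic span A stood at 0.133, -0.247 and -0.459 from short to long genes, and without A the clone was at -0.086, -0.082 and -0.080. By terciles of mean RPKM A stood at -0.336, -0.253 and 0.012 from low to high, and without A the clone was at -0.061, -0.093 and -0.095. By promoter class, members with under 20 CG (97 genes) were at -0.094 in A and those with 20 or more (286 genes) at -0.240, while without A the classes stood at -0.089 and -0.087. Within B and C members fell with level: by terciles of mean RPKM B stood at -0.051, -0.092 and -0.104. Library C stood at -0.039, -0.075 and -0.097, so all were below 0. Genes of other chromosomes fell with level as well, from 0.024 through -0.0080 to -0.028 in B. In C they went from 0.020 through -0.0056 to -0.025. With A left out of that mean, genes of other chromosomes in the clone stood at 0.012, -0.0059 and -0.012.

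The share of all reads that fell on the 502 members was 7.40% in s3_2N_B and 7.49% in s3_2N_C. It was 7.93% in s3_2N_A, 7.43% to 7.54% in s1_4N and 7.74% to 8.33% in the other 12 libraries. This share leans on few genes, since GAPDH, which encodes a glycolytic enzyme, alone took 7.01% of member reads. Without the 10 most abundant members, s3_2N took 5.68% to 5.75%, s1_4N 5.77% to 5.83% and the other clones 5.91% to 6.44%. Without those 10, s1_4N was thus nearly as low as s3_2N, although its mean over members was not. With them the clone mean was 7.47% in s1_4N and 7.60% in s3_2N. On 12p the share was 1.53% in s1_4N, 1.71% in s3_2N and 1.68% to 1.73% in the other clones. Within s3_2N it was 1.92% in A, 1.60% in B and 1.61% in C. On 12q it was 5.94% in s1_4N, 5.90% in s3_2N and 6.20% to 6.43% in the other clones.

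Read gene by gene, few members left the range of the other clones. In 22 members, 2 on 12p and 20 on 12q, all 3 s3_2N libraries were below the other 15, and in none were they all above. Over all 11976 genes at the minimum the shares were 0.593% below and 0.225% above. Without A, 42 members were below, 7 on 12p and 35 on 12q, and none above, where the shares over all genes were 1.21% and 0.501%. With limma, 86 members were lower in s3_2N than in the mean of the other 5 clones and 2 were higher at an adjusted p under 0.05, where 4.63% and 3.16% of all genes tested were. These counts come from the contrast that chose the chromosome and are read no further. At 2-fold or more no member was called in either direction, where 0.175% of all genes were lower and 0.2% higher. The counts moved with single libraries: the calls in both directions numbered 88 with all libraries, 94 without A, 170 without B, 172 without C and 56 without s2_2N_A. Calls over all 11976 genes moved as well. They were 378 higher and 555 lower with all libraries, 239 and 530 without A, and 1643 and 1468 without B. Without C they were 1438 and 1452, and without s2_2N_A 230 and 354.

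The members of 12p that were furthest below, with no overlap, were NECAP1 and ITFG2. NECAP1, which encodes a protein of clathrin-coated vesicles, stood at 1.44, 1.79 and 1.83 RPKM in s3_2N and at 1.95 to 2.73 (median 2.11) in the other 15 libraries. Its s3_2N mean was 0.35 below the mean of the other 5 clones on the log2 scale (a difference of -0.35), and without A the difference was -0.25. ITFG2, whose product belongs to a complex that regulates mTORC1, stood at 0.722, 0.749 and 0.779 RPKM against 0.819 to 1.04 (median 0.940). In both genes every s3_2N library was below every other, and A was the lowest. ITFG2 overlaps the end of FOXM1 on the other strand, and the strand setting of the counting is not given in the sources used here.

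On 12q the 5 lowest were NTN4, ANKRD13A, PXN, HCFC2 and DYRK2. NTN4 encodes netrin-4, a protein of basement membranes, and stood at 0.402, 0.506 and 0.498 RPKM in s3_2N against 0.514 to 1.55 (median 0.620) elsewhere. The s3_2N values of B and C were just under those of s1_2N (0.514 to 0.562), and s2_4N was far above (1.47 to 1.55). PXN, which encodes the focal adhesion scaffold paxillin, stood at 4.96, 6.36 and 6.39 RPKM against 6.73 to 17.5, with s2_4N again at the top. ANKRD13A, for a ubiquitin-binding protein, was at 1.23, 1.61 and 1.66 RPKM against 1.67 to 4.37. DYRK2, a protein kinase gene, was at 1.64, 2.32 and 2.44 RPKM against 2.46 to 3.28. HCFC2, for a host cell factor, was at 0.245, 0.504 and 0.464 RPKM against 0.509 to 0.691.

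These 5 differences from the other clones were -0.61 (NTN4), -0.55 (ANKRD13A), -0.54 (PXN), -0.53 (HCFC2) and -0.41 (DYRK2) on the log2 scale. Without A they were -0.51, -0.42, -0.42, -0.25 and -0.24. For NTN4, ANKRD13A and PXN the mean of the other 5 clones includes the high values of s2_4N. The promoter of NTN4 printed above belongs to the class with 20 or more CG, as does that of NECAP1.

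In the landmark members the difference was small once A was left out. KDM5A, a histone demethylase gene at the start of 12p, stood at 0.400, 0.820 and 0.787 RPKM in s3_2N A, B and C and at 0.617 to 1.01 in the other libraries. Its difference was -0.37 with A and -0.061 without. ZNF268, a zinc finger gene at the end of 12q, stood at 0.480, 0.697 and 0.687 RPKM against 0.654 to 0.843, a difference of -0.25 with A and -0.090 without. ALG10 and ALG10B, near-identical genes of a glucosyltransferase on the 2 sides of the gene-free stretch, were at 0.478 and 0.535 RPKM in A. In B and C they were at 0.973 to 1.27 RPKM, inside the range of the other clones (0.671 to 1.57), and reads of these copies can be assigned to either. In all 4 genes A was the lowest of the 18 libraries, and B and C overlapped the other clones.

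Grouped by function, members lay below the other 5 clones in most lists when A was left out. The lists were chosen with earlier results of these data known. All 8 members for the proteasome, chaperones and endoplasmic reticulum were below 0 (median -0.168), among them HSP90B1, an endoplasmic reticulum chaperone gene (-0.073). Of 14 members for tubulin, actin motors and adhesion 13 were below (median -0.119), and CD63, a tetraspanin gene, was at -0.27. Of 13 glycolysis and central metabolism members 11 were below (median -0.084), with the glycolytic enzyme genes GAPDH at -0.090 and TPI1 at 0.013. Of 13 ribosome and translation members 11 were below (median -0.086), and of 8 for mitochondrial respiration and transport 7 (median -0.107). The 5 keratin members, KRT18 among them at -0.18, were all below (median -0.130). Over all 502 members the median was -0.097, so these lists lay close to the chromosome as a whole. With A included the same lists read otherwise: 5 of 8, 6 of 14, 5 of 13, 5 of 13, 1 of 8 and 1 of 5 members were below 0, in the order given.

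In the cell cycle list 7 of 17 members were below 0 without A, with a median of 0.048, and 11 of 17 with A, with a median of -0.028. Its difference from the other members was not tested. FOXM1, a transcription factor gene of the G2 and M phases, stood at 0.11, and CDK4, a G1 kinase gene, at -0.053. Of the 11 members for p53 regulation, apoptosis and growth signalling 10 were below (median -0.118), and with A 9 (median -0.248). HOXC genes had no member of 9 on the chromosome, and 12 of the 27 keratin genes were at 0 in every library.

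By ploidy, the chromosome 12 means of the 3 tetraploid clones averaged 0.025 ± 0.037 (SD, n = 3 clones) and those of the 3 diploid clones -0.025 ± 0.060. The diploid group holds s3_2N, whose low value chose the chromosome, so this difference of 0.051 is a description with no test. The other diploid clones, s1_2N and s2_2N, stood at 0.0037 and 0.015, inside the range of the tetraploid clones (-0.016 to 0.056). After centring they stood at 0.023 and 0.021, and the tetraploid clones at 0.021 to 0.025.

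After centring, the libraries of the tetraploid and the diploid clone of isolates 1 and 2 overlapped over the whole chromosome. As deposited those of isolate 1 overlapped too, but those of isolate 2 did not. They lay at 0.044 to 0.071 in s2_4N and at 0.0038 to 0.021 in s2_2N, a difference that was not tested. In isolate 1 the centred mean was 0.025 ± 0.0057 in s1_4N and 0.023 ± 0.00052 in s1_2N, with overlapping libraries (exact permutation p = 0.9, smallest possible 0.1, n = 3 libraries each). In isolate 2 it was 0.021 ± 0.0027 in s2_4N and 0.021 ± 0.012 in s2_2N (exact permutation p = 1). Its arms did part: 12p less 12q was -0.045 ± 0.0026 in s2_4N and 0.014 ± 0.0076 in s2_2N. The 3 libraries of the one did not overlap those of the other (exact permutation p = 0.1, the smallest possible). In isolate 1 the same measure was 0.0097 ± 0.0056 and 0.014 ± 0.012, with overlap (exact permutation p = 0.6).

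Single members did change within these isolates, in both directions. The fit was limma across all 11976 genes at the minimum, with Benjamini-Hochberg adjustment over all of them and 1 estimate of spread shared by the 6 clones. In isolate 1, 62 members were higher and 63 lower in s1_4N than in s1_2N, which is 12.4% and 12.5% of the members, where 9.64% and 9.53% of all genes tested were called. In isolate 2, 123 were higher and 104 lower in s2_4N, 24.5% and 20.7% of the members against 19.4% and 16.7% of all genes. The medians over members were -0.0013 and 0.041, and over all genes -0.0022 and 0.023. At 2-fold or more, 5 members were higher and 11 lower in isolate 1 (0.777% and 1.83% of all genes), and 18 were higher and 12 lower in isolate 2 (3.05% and 3.58%). Calls in isolate 1 numbered 125 in all, 238 without s3_2N_A and 80 without s1_2N_C. Calls over all genes moved as well: 1155 were higher and 1141 lower, 2365 and 2285 without s3_2N_A, and 749 and 651 without s1_2N_C. Isolate 3 holds s3_2N and is given as a description: 34 members were higher and 2 lower in s3_4N, where 1.81% and 1.40% of all genes were called. At 2-fold or more 2 were higher and 1 lower (0.217% and 0.359% of all genes). Its median over members was 0.148 against -0.0062 over all genes. Those 36 calls became 61, 29 and 56 without s3_2N A, B and C, 23 without s2_2N_A, and 14, 15 and 87 without s3_4N A, B and C. Over all genes 217 were higher and 168 lower. In the same order as above these became 371 and 182, 261 and 171, 372 and 292, then 166 and 122. Without s3_4N A, B and C they were 95 and 72, 112 and 71, and 536 and 375.

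The count of members outside the range of all other libraries differed between clones. In s1_4N 66 members were below and 59 above the other 15 libraries, and in s2_4N 49 and 93. In s1_2N the counts were 7 and 7, in s2_2N 2 and 10, and in s3_4N 2 and 3. Over all genes tested, 10.6% were below and 7.29% above in s1_4N, 11.7% and 13.4% in s2_4N, 1.39% and 0.668% in s1_2N, 0.568% and 0.559% in s2_2N and 0.359% and 0.242% in s3_4N.

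Of the members for the cell cycle, replication and mitosis, 12 of 17 were lower in s1_4N than in s1_2N and none higher. In s2_4N 7 were higher than in s2_2N and 1 lower. Over all genes tested 9.64% were higher and 9.53% lower in isolate 1, and 19.4% and 16.7% in isolate 2. FOXM1 stood at 11.5, 12.5 and 14.7 RPKM in s1_2N and at 4.92, 4.85 and 4.93 in s1_4N, a difference of -1.38 (SE 0.15, limma adjusted p = 2.56e-05). In isolate 2 it went from 12.2, 11.2 and 13.5 RPKM to 20.1, 18.6 and 19.5 (0.66, SE 0.15, limma adjusted p = 0.00264). The groups did not overlap in either isolate, and the directions were opposite. CDCA3, which promotes entry into mitosis, differed by -1.42 and 0.67 in the same order, ESPL1, the separase gene, by -1.32 and 0.71, and TROAP, for a spindle-associated protein, by -1.31 and 0.47. In isolate 2 the ESPL1 call was lost without s2_2N_B, and that of TROAP without s2_2N A or B or s2_4N B or C. TUBA1B, an alpha-tubulin gene with near-identical copies on the same arm, differed by -0.91 and 0.65, and its isolate 2 call was lost with no RPKM minimum and without s2_2N A or B or s2_4N_C. Of the 63 members lower in isolate 1 and the 123 higher in isolate 2, 19 were the same genes (30.2% and 15.4% of each). Over all genes tested these shares were 30.1% and 14.7%.

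CDKN1B, which encodes the cyclin-dependent kinase inhibitor p27, was lower in the tetraploid clone of both isolates. It went from 16.6, 16.3 and 16.8 RPKM in s1_2N to 11.8, 13.0 and 13.2 in s1_4N (-0.38, SE 0.07, limma adjusted p = 0.00137). In isolate 2 it went from 16.1, 15 and 15.7 RPKM to 10.6, 9.78 and 9.15 (-0.67, SE 0.07, limma adjusted p = 3.34e-06). Tetraploid and diploid libraries did not overlap in either isolate. In isolate 3 CDKN1B was not called lower. Over the alternatives run, 7 to 15 members of the list were lower and 0 or 1 higher in isolate 1, and 6 to 11 were higher and 1 lower in isolate 2. The 7 came with a minimum of 2 RPKM, where 11 of the list were tested. The 15 came centred and without s3_2N_A. That fit called 2419 of all 11976 genes higher and 2353 lower in isolate 1, against 1155 and 1141 in the main fit.

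**Figure D5:**
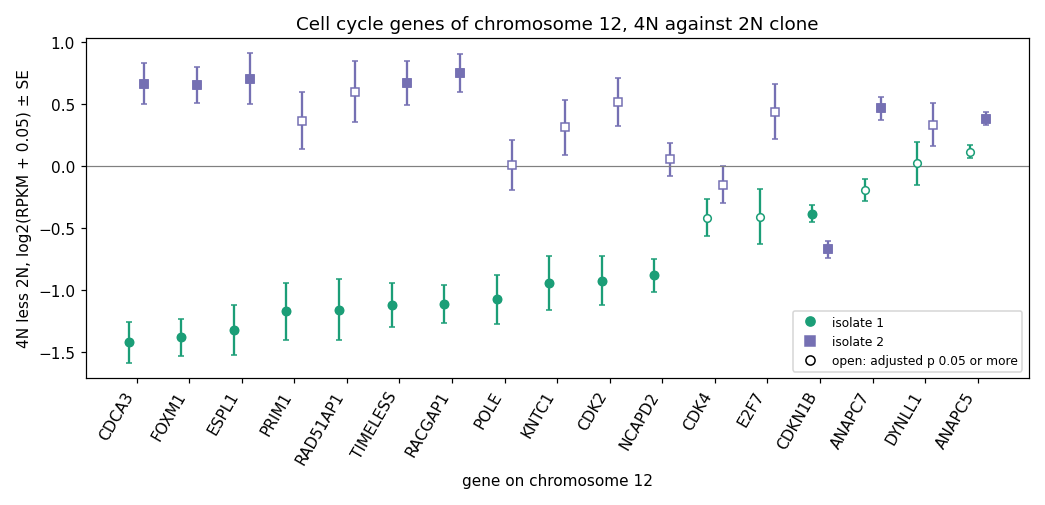
Difference between the tetraploid and the diploid clone for the 17 cell cycle members of chromosome 12, in log2(RPKM + 0.05) with the SE, in isolate 1 (circles) and isolate 2 (squares). Filled symbols passed an adjusted p of 0.05. CDCA3, FOXM1 and ESPL1 lie below -1.3 in isolate 1 and above 0.6 in isolate 2, and CDKN1B lies below 0 in both.

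Of the p53, apoptosis and growth list, 3 of 11 members were higher in s1_4N and none lower, and 4 were higher and 2 lower in s2_4N. Over all genes 9.64% were higher and 9.53% lower in isolate 1, and 19.4% and 16.7% in isolate 2. Without s2_2N_B or s2_4N_C the isolate 2 counts were 2 and 1. Over all 11976 genes these 2 fits called 1851 and 1866 higher and 1622 and 1706 lower. MDM2, the gene of the ubiquitin ligase that turns over p53, and TIGAR, a p53-induced regulator of glycolysis on 12p that is not in the list, were named after their values were seen. MDM2 stood at 3.28, 3.51 and 3.43 RPKM in s1_2N and 4.48, 4.55 and 4.70 in s1_4N (0.42, SE 0.07, limma adjusted p = 0.000721). It stood at 3.04, 2.73 and 2.94 RPKM in s2_2N and 6.88, 6.52 and 7.38 in s2_4N (1.24, SE 0.07, limma adjusted p = 7.78e-09). In isolate 3 it went from 2.50, 2.74 and 2.85 to 4.55, 4.50 and 4.88 RPKM. No diploid library reached a tetraploid one of its isolate. DUSP6, a phosphatase gene of the ERK pathway, moved apart, by 0.74 (SE 0.07) in isolate 1 and -0.51 (SE 0.07) in isolate 2.

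TIGAR was at 0.531 to 0.546 RPKM in s1_2N and 0.811 to 0.931 in s1_4N (0.63, SE 0.09, limma adjusted p = 0.000219). In isolate 2 it went from 0.492 to 0.533 RPKM up to 1.05 to 1.298 (1.11, SE 0.09, limma adjusted p = 2.69e-07). Its neighbour CCND2, the cyclin D2 gene, ends 2.41 kb before TIGAR starts, on the same strand, and was outside the minimum at a mean of 0.274 RPKM. CCND2 was at 0.00207 ± 0.00086 (SD, n = 3), 0.00041 ± 0.00035 and 0.0156 ± 0.0043 RPKM in the diploid clones of isolates 1, 2 and 3. In their tetraploid clones it was at 0.596 ± 0.025, 0.687 ± 0.092 and 0.346 ± 0.043 RPKM. Both neighbours were thus higher in each tetraploid clone than in its diploid partner. In isolate 3 TIGAR stood at 0.486 to 0.582 RPKM in s3_2N and 0.745 to 0.809 in s3_4N.

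Other members with large changes were named by the size of the change in isolates 1 and 2. LUM, which encodes the matrix proteoglycan lumican, stood at 2.89, 2.74 and 2.56 RPKM in s1_2N and 13.3, 13.3 and 14.7 in s1_4N (2.31, SE 0.16, limma adjusted p = 6.91e-07). In isolate 2 it went the other way, from 4.80, 5.16 and 4.32 RPKM to 0.011, 0.0055 and 0. The fitted difference there depends on the pseudocount, at -6.44 with 0.05 and -3.38 with 0.5. RDH5, a retinol dehydrogenase gene of the visual cycle, went from 5.62, 6.23 and 5.77 RPKM in s2_2N to 27.2, 28.9 and 29.9 in s2_4N (2.28, SE 0.12, limma adjusted p = 4.14e-09). DGKA, a diacylglycerol kinase gene, rose by 2.17 (SE 0.05) and CCDC184 by 1.98 (SE 0.13) in the same isolate, and LRIG3, a gene of a leucine-rich membrane protein, fell by 1.82 (SE 0.14). RDH5 and DGKA lie within the stretch of 12q where s2_4N had its highest window. In isolate 1 RDH5 and DGKA were higher by 0.45 and 0.33, and both passed the test, RDH5 no longer without s1_2N B or C or s1_4N A or B.

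The calls in the next 4 lists stand beside shares over all genes of 9.64% higher and 9.53% lower in isolate 1. In isolate 2 these shares were 19.4% and 16.7%. They are those of the fit with all 18 libraries. Over all 11976 genes that fit called 1155 higher and 1141 lower in isolate 1, and 2327 and 2005 in isolate 2. Without s3_2N_A these counts were 2365 and 2285 in isolate 1, and 3442 and 3016 in isolate 2. Without s2_2N_B those of isolate 2 were 1851 and 1622. Of the 5 keratin members, KRT18, KRT7 and KRT80 were higher in s1_4N. KRT18, KRT8 and KRT80 were higher in s2_4N. Of these 3 isolate 2 calls, KRT80 held in all 25 alternatives. KRT18 was lost in 8, among them each omission of an s2_2N or s2_4N library, and KRT8 in 17. KRT18 stood at 64.7 to 66.6 RPKM in s1_2N and 106 to 112 in s1_4N (0.73, SE 0.15, limma adjusted p = 0.0033), and at 65.4 to 70.5 in s2_2N and 88.2 to 95.01 in s2_4N (0.42, SE 0.15, limma adjusted p = 0.0381). KRT8 and KRT18 lie side by side and overlap in the annotation. Of 14 tubulin, actin motor and adhesion members 1 was higher and 2 lower in s1_4N, and 7 were higher and 1 lower in s2_4N. Without s3_2N_A the counts were 6 and 3 in isolate 1 and 11 and 1 in isolate 2, and without s2_2N_B isolate 2 had 4 and 1. Of 13 ribosome and translation members none was higher and 4 lower in s1_4N, and 2 were higher and 4 lower in s2_4N. Over the alternatives 1 to 5 were lower in isolate 1, with 1 without s1_2N B or C or any s1_4N library, and in isolate 2 1 to 3 were higher and 2 to 5 lower. The 8 members for mitochondrial respiration and transport had no call in isolate 1 and 1, SLC25A3, the mitochondrial phosphate carrier gene, lower in isolate 2 (-0.50). Without s3_2N_A 4 were higher and 1 lower in isolate 2.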

How the data were processed

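RNA of 18 libraries (6 RPE1 clones, 3 each) was sequenced as stranded polyA libraries, per the labels' protocols. The submitters' processing notes name CASAVA 1.8.2, TopHat2, edgeR and hg19; counting and annotation are not given in the sources used here. The authors deposited 1 table of RPKM values for 57773 genes. Low values gave whole reads (within 0.01) for 99.98% of genes above 0, which gave the depth of 37.2 to 54.4 M reads per library; for 86.2% of 16714 well-covered genes the length used was the genomic span, introns included, so RPKM of long genes is low.

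Genes were matched by Ensembl ID to GENCODE 29 (52338 matched), whose GRCh38 positions gave order and arm only. Values were log2(RPKM + 0.05). limma 3.58.1 (R 4.3.3, trend, two-sided, Benjamini-Hochberg) was fitted to all 11976 genes of mean RPKM 0.5 or more and tested on simulated data. Library means within isolates 1 and 2 were compared by exact permutation (scipy 1.17.1). P-values within an isolate measure the spread between libraries of 1 clone. Members and lists were chosen with earlier results of these data known.

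Named members were: per arm, up to 5 highest and lowest in s3_2N without overlap with the other 15 libraries; up to 4 per list by RPKM; the end members of each arm; those beside the RPKM minimum; and the 5 largest 2-fold calls of isolates 1 and 2. Others were chosen after their values were seen. Same-letter libraries did not pair: of 45 correlations of their deviations (-0.792 to 0.559), 18 exceeded 0.1.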

Additional observations from a re-analysis of the deposited data

How the results depend on the processing

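The chromosome 12, 12p and 12q means of s3_2N stayed below 0 under every alternative run. They were -0.072, -0.064 and -0.074 with a pseudocount of 0.5, and -0.072, -0.059 and -0.075 (12p less 12q 0.016) at a mean RPKM of 2 or more. After centring off chromosome 12 the whole stood at -0.115 and 12q at -0.116, and 12q less the other 5 clones was -0.115. Leaving out each library in turn gave -0.103 to -0.087 (12p -0.100 to -0.079, 12q -0.104 to -0.089, 12p less 12q 0.0041 to 0.0094). The lowest of the other 5 clones' means, -0.016, was -0.051 at RPKM 2, 0.0034 with no minimum, 0.0013 by medians, 0.021 centred, 0.015 centred without s3_2N_A and -0.035 less the other 5 clones; leaving out libraries gave -0.024 to -0.012. On that last scale s2_2N changed sign, to -0.0043.

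Members called (isolate 1, 2, 3 and s3_2N against the rest) numbered 125, 227, 36 and 88 of 502. Over all 11976 genes the higher and lower calls were, in that order, 1155 and 1141, 2327 and 2005, 217 and 168, and 378 and 555. With a minimum of 2 RPKM, where fewer genes are tested, the members called were 71, 130, 17 and 46 of 275. Over all 5716 genes then tested, the calls were 567 and 628, 1200 and 842, 85 and 56, and 175 and 229. With no minimum, which tests more genes, isolates 2 and 3 and s3_2N had 373, 80 and 136 of 929. Over all 35960 genes tested there, the calls were 4742 and 4623, 653 and 570, and 798 and 1168. With voom on recovered reads the 4 had 193, 401, 84 and 163 of 800. Over all 23390 genes tested there, the calls were 2342 and 2116, 4782 and 5004, 787 and 689, and 1277 and 1312. Centred and without s3_2N_A, an alternative chosen after seeing the data, isolate 1 had 248, where 2419 of all genes were higher and 2353 lower. Leaving out libraries gave 80 to 238, 174 to 329, 14 to 87 and 56 to 172. The fits at these ends called 749 higher and 651 lower to 2365 and 2285 of all genes in isolate 1. In isolate 2 they called 1851 and 1622 to 3442 and 3016. In isolate 3 it was 95 and 72 to 536 and 375, and for s3_2N 230 and 354 to 1438 and 1452. With the library letter as a replicate block the member calls were 110, 211, 22 and 57. Over all genes they were 998 and 1013, 2188 and 1901, 160 and 117, and 242 and 357. The letters do not pair the samples (3 of 18 libraries correlated best with their own letter). The 10 values of members named for the largest change in isolates 1 and 2 kept their direction and call in every alternative that tested them. Of the other single-gene calls printed for these isolates, the isolate 1 call of RDH5 and the isolate 2 calls of ESPL1, TROAP, TUBA1B, KRT18, KRT8 and OAS3 were lost in 4, 1, 4, 4, 8, 17 and 15 alternatives (highest adjusted p 0.0626, 0.0504, 0.0824, 0.0768, 0.104, 0.133 and 0.129). With the replicate block only KRT8 and OAS3 among them were lost (adjusted p = 0.0559 and 0.0596). The shift is a mean over members in 1 clone, and depth limits what single low genes show.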

Other observations

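Genes of chromosome 12 outside the rule were read with the same measure on recovered reads. The 154 protein-coding genes under the RPKM minimum that had 100 or more reads on average stood at -0.086 in s3_2N without A and centred, with -0.114 on 12p (45 genes) and -0.075 on 12q (109 genes), and 66.9% of them were below 0. Their median was -0.054, and with A the mean was -0.195. The 131 genes that are not protein-coding and had as many reads stood at -0.034, with a median of -0.010, and 53.4% were below 0. On 12p their mean was -0.0022 (58 genes) and on 12q -0.059 (73 genes). Centring was on protein-coding genes of other chromosomes at the minimum. Low or non-coding genes of other chromosomes were not compared, so these percentages have no like share beside them.

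Calls shared by isolates 1 and 2, which have no library in common, were 25 members higher in both tetraploid clones (40.3% of the isolate 1 and 20.3% of the isolate 2 calls) and 13 lower in both (20.6% and 12.5%). Over all genes these shares were 33.2% and 16.5% for higher, and 15.5% and 8.83% for lower. Those higher included HSPB8, a small heat shock protein gene (0.57 and 0.43), and GPRC5A, a retinoid-induced receptor gene (0.69 and 1.06). Those lower included OAS3, an interferon-induced synthetase gene (-0.94 and -0.54). In isolate 3 OAS3 differed the other way, by 0.48, and was not called. Its isolate 2 call was lost in 15 of 24 alternatives, among them all 12 omissions of an isolate 1 or 2 library. These 3 were named after their values were seen.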
